A study of Mus musculus with 9 samples.

Results

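RNA of a drug-selected mouse iPS clone made with 4 factors was set against RNA of mouse embryonic fibroblasts (MEF) that had received the same 4 factors and were not selected. The pair was chosen by its labels alone, and it holds 2 of the 9 samples of the series, each hybridised once to a single-colour (Cy3) oligonucleotide array. The selected sample is the clone FBX15-iPS MEF4-7. It came from Fbx15 bgeo-KI MEF given retroviral vectors for the 4 factors, kept under ES cell conditions and selected with G418 for 16 days. The unselected sample is FBX15 KO MEF-4 factors, the same kind of knock-in MEF given the same 4 vectors without G418, in which the submitters saw no iPS clones. Both samples carry the Fbx15 bgeo knock-in, so neither is wild type at that gene. The other 7 arrays are used for levels only. They hold 1 clone made with 10 factors (iPS-MEF10-6), 2 clones made with 3 factors (iPS-MEF3-2 and iPS-MEF3-3, clones 1 and 2 here), Fbx15-null embryonic stem (ES) cells grown on STO cells, Fbx15-null MEF from E13.5 embryos, a spontaneously immortalised line of wild-type MEF that carries an oncogene, and NIH3T3 HRasV12 cells. The 10-factor and 3-factor clones also came from Fbx15 bgeo-KI MEF selected with G418 for 16 days.

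As background, retroviral delivery of a few transcription factors turns a small minority of fibroblasts into cells that resemble ES cells. The labels do not name the 4 factors. In the published method they are Pou5f1 (Oct3/4), Sox2, Klf4 and Myc. Fbx15 (Fbxo15) is an F-box gene active in ES cells and silent in fibroblasts, and bgeo joins beta-galactosidase to a G418 resistance gene, so only cells in which the Fbx15 locus is active survive the drug. On the way to the ES cell state, cells are known to lose fibroblast adhesion and matrix genes, take on epithelial junctions, and later switch on their own pluripotency genes.

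The selected side is 1 clone and the unselected side is 1 uncloned culture, with 1 array each, so no difference below has a replicate check and no test was made. The clone was scanned on the first of 4 scan days and the unselected MEF alone on the last, so scan day and selection cannot be told apart. Signals are given as multiples of the array's own 75th percentile. That percentile was 233 intensity units for the clone and 167 for the unselected MEF. A spot counts as above background where the scanner program calls it well above background, which held for 56.2% of 20868 gene probes in the clone and 53.9% in the unselected MEF. Both arrays measured 10228 probes, 1498 were above background in the clone alone, 1016 in the unselected MEF alone, and 8126 in neither. Where the dimmer spot was not above background, a fold is a bound and is written as at least N-fold. The spot error given beside some log2 differences is the scanner program's own error of both spots, and it holds no variation between cultures. In bulk RNA, fewer cells of a type and less RNA per cell cannot be told apart.

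The arrays differed far more than a pair of like clones did. The log2 difference between clone and unselected MEF had a robust SD of 1.14 over probes above background on both arrays. The same measure was 0.25 between the 2 3-factor clones, over 11453 probes. At least 5-fold differences were found for 615 probes higher in the clone (2.95%) and 898 lower (4.3%). Between the 2 3-factor clones they were found for 3 probes higher in clone 1 (0.0144%) and 13 lower (0.0623%). The 3-factor clones share a scan day, which the compared arrays do not. Counted as named genes, 459 of 15678 were at least 5-fold higher in the clone (2.93%) and 820 were at least 5-fold lower (5.23%). The median log2 difference of all genes was 0. With normexp background correction and an offset of 50, which by its construction compresses low signals, the probe counts were 120 higher and 309 lower.

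**Figure D1:**
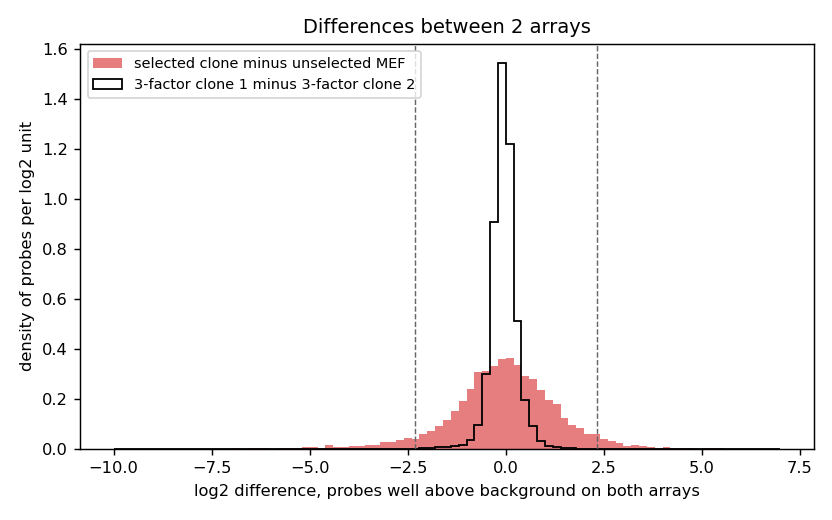
Density of log2 differences over probes above background on both arrays, for the selected clone minus the unselected MEF (filled) and for 3-factor clone 1 minus 3-factor clone 2 (line); dashed lines mark 5-fold. The filled distribution, with a robust SD of 1.14, is far wider than the line, with 0.25.

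The genes lower in the clone differed by larger folds than those higher. The median fold was 10.8 among the 820 lower genes and 7.67 among the 459 higher ones, and at least 32-fold was reached by 157 and 34 of them. The dimmer array was not above background for 305 of the lower genes (37.2%) and 163 of the higher ones (35.5%), so those folds are bounds. These folds describe how the 2 sets were drawn. The same genes can be looked at on arrays that were not used to call them. By the rule, each higher gene was above background in the clone and each lower gene in the unselected MEF. Of all genes, 60.8% were above background in the clone and 59.7% in the unselected MEF. How far that filter raises the shares on the other arrays was not tested.

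On those other arrays the 459 higher genes were above background more often than all genes in ES cells and the other clones, and about as often as all genes in the fibroblast samples. For comparison, of all 15678 genes 62.6% were above background in ES cells, 64.5% in the 10-factor clone, 61.4% and 60.9% in the pair made with 3 factors, 60.8% in MEF, 56.7% in the immortalised line and 56.6% in NIH3T3 HRasV12 cells. Of the 459 genes 88.2% were above background in ES cells, 94.1% in the clone made with 10 factors, and 86.9% and 85.2% in those made with 3, against 63.2% in MEF, 55.8% in the immortalised line and 55.1% in NIH3T3 HRasV12 cells. Their median signal was 0.451 in ES cells and 0.596 in the 10-factor clone, against 0.101 in MEF. In ES cells against MEF, 146 of the 459 were at least 5-fold higher (31.8%), beside 4.58% of all genes. In the 10-factor clone against MEF the count was 164 (35.7%), beside 2.91% of all genes. The 820 lower genes had a median signal of 0.214 in ES cells and 0.186 in the 10-factor clone, against 0.634 in MEF, where 90% were above background. Of these, 291 were at least 5-fold lower in ES cells than in MEF (35.5%, beside 4% of all genes) and 276 were at least 5-fold lower in the 10-factor clone than in MEF (33.7%, beside 2.6%). The contrasts against MEF share that array with each other.

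**Figure D2:**
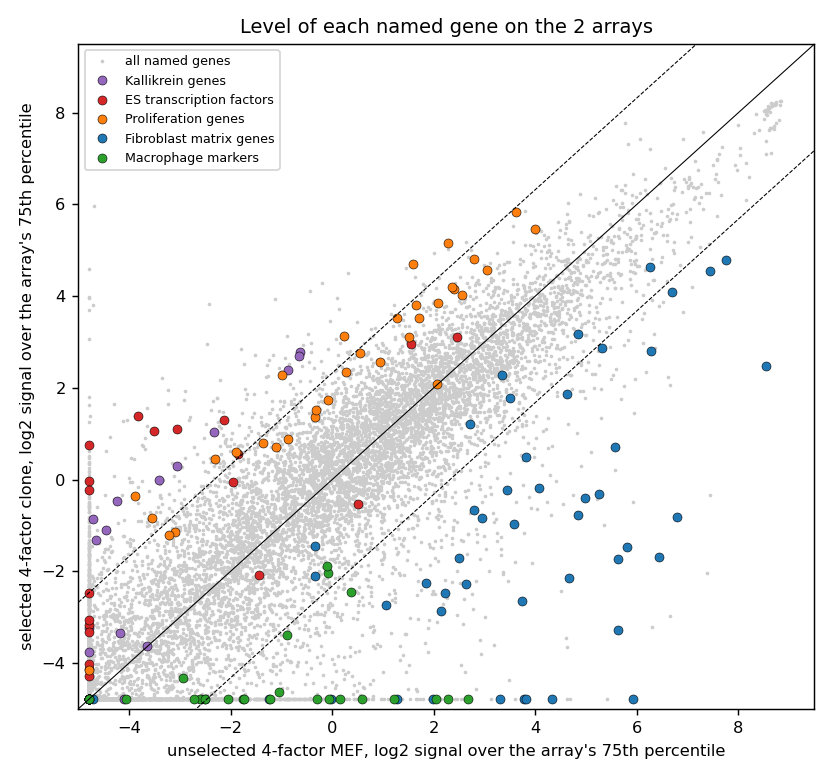
Each dot is a named gene, placed by its log2 signal over the array's 75th percentile in the selected clone (vertical) and the unselected MEF (horizontal), with 5 gene lists in colour, a solid line of equal level and dashed lines at 5-fold. Matrix genes and macrophage markers lie below the lower dashed line in most cases, 10 kallikrein genes lie above the upper one, and proliferation genes lie between it and the line of equal level or above.

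Genes of the ES cell network were unevenly higher in the clone. The gene whose locus drove the selection was above background in the clone: Fbxo15 had a signal of 0.681 in the clone and was not above background in the unselected MEF (-0.00686), at least 19.3-fold higher in the clone. ES cells labelled Fbx15-null gave 2.37 with the same probe, and where the probe lies relative to the disrupted part of the gene was not checked. Of 25 ES transcription factors on the array, 8 were at least 5-fold higher in the clone (background 2.93%), none was at least 5-fold lower, and 5 were above background on neither array. The list's median log2 difference was 1.46. In the clone 20 of the 25 were above background, and in the unselected MEF 10 were.

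The 4 factors used in the published method did not differ alike. Pou5f1, the POU factor at the centre of the ES network, had 2.15 in the clone and 0.12 in the unselected MEF, 17.9-fold higher in the clone (log2 4.16, spot error 0.33). Its partner Sox2 had 1.47 in the clone and 0.276 in the unselected MEF, 5.33-fold higher in the clone (log2 2.41, spot error 0.26). Klf4 had 10.4 in the clone and 7.12 in the unselected MEF. Both values were below the 12 of MEF and the 29.6 of ES cells. Myc had 1.04 in the clone and 3.37 in the unselected MEF, beside 4.12 in MEF and 0.792 in ES cells. So 2 of the 4 were past 5-fold. The probe sequences were not used here, and transcripts of the vectors cannot be told apart from those of the cells' own genes.

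The other higher ES factors had signals in the clone below those of ES cells. Nr5a2, a nuclear receptor that can act upstream of Pou5f1, had 1.69 in the clone and was not above background in the unselected MEF, at least 48-fold higher, beside 4.02 in ES cells. Nr0b1 (Dax1), an orphan nuclear receptor of ES cells, had 0.976 in the clone, at least 27.7-fold above the unselected MEF, where it was not above background. Tfcp2l1, a factor of the naive state, had 2.1 in the clone and 0.0875 in the unselected MEF, 24-fold higher. These 3 lay at lower signals in the clone than in ES cells, where Nr0b1 had 3.31 and Tfcp2l1 3.94. Rif1, which guards chromosome ends and replication timing, had 2.62 in the clone and 0.0708 in the unselected MEF, 37.1-fold higher (log2 5.21, and 4.11 as the mean over its 3 probes). The unselected MEF was the lowest of the 9 arrays for Rif1, which had 7.13 in ES cells, 0.592 in MEF, 1.38 in the immortalised line and 1.18 in NIH3T3 HRasV12 cells. Mybl2, a cell cycle factor, had 2.44 in the clone and 0.23 in the unselected MEF, 10.6-fold higher, with 7.4 in ES cells.

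Nanog, Esrrb and Zfp42 were above background in the clone but faint. Nanog, the homeobox factor of the pluripotent state, had 0.179 in the clone, at least 5.07-fold above the unselected MEF, with 6.04 in ES cells. Esrrb, an orphan nuclear receptor, had 0.111 in the clone and 5.54 in ES cells. Zfp42 (Rex1), a marker of undifferentiated ES cells, had 0.12 in the clone and 131 in ES cells, and was not above background in the unselected MEF. In all, 6 of the 25 ES transcription factors were at least 5-fold lower in the clone than in ES cells (3.6% of all genes were) and none was at least 5-fold higher (2.24% of all genes). Utf1, Tbx3, Otx2, Mycn and Lin28a were the 5 not above background on either array.

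Of 28 other ES marker genes, 8 were at least 5-fold higher in the clone (28.6%, beside 2.93% of all genes) and 2 were at least 5-fold lower (7.14%, beside 5.23%), with a median log2 difference of 0.40. Tdh, the mitochondrial threonine dehydrogenase on which mouse ES cells depend, had 62.6 in the clone and was not above background in the unselected MEF (0.0389), at least 1608-fold higher. Its level in the clone was near the 56 of ES cells and above the 13.6 of the 10-factor clone. Gdf3, a TGF-beta family ligand of ES cells, had 1.11 in the clone, at least 31.6-fold above the unselected MEF. Kit, the receptor of stem cell factor, had 0.955 in the clone, at least 27.1-fold higher. Dppa5a, an RNA-binding protein of early embryos, had 7.16 in the clone and 0.288 in the unselected MEF, 24.9-fold higher, and stood at 304 in ES cells. Trap1a, an X-linked tumour antigen gene, had 0.614 in the clone and was at least 17.4-fold higher.

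Other ES markers were faint or not above background in the clone. Dppa4, Khdc3, Nodal, Tdgf1 and Pecam1 were above background on neither array of the pair. In ES cells Dppa4 had 4.03, Khdc3 3.41 and Nodal 0.739, while Tdgf1 was not above background there either. Dppa3 (Stella) had 0.0488 in the clone and 3.88 in ES cells. Lefty1, a secreted inhibitor of Nodal, was lower in the clone, with 0.0733 in the clone and 1.37 in the unselected MEF, 18.6-fold lower (log2 -4.22, spot error 0.60). Icam1, an adhesion molecule also found on fibroblasts, had 0.043 in the clone and 1.55 in the unselected MEF, 35.9-fold lower. Of the 28 markers, 13 were at least 5-fold lower in the clone than in ES cells (3.6% of all genes were). None was at least 5-fold higher (2.24% of all genes). Germ cell genes were mostly silent on both sides: 19 of 24 were above background on neither array and none was at least 5-fold higher. Brdt, a bromodomain gene of the testis, was at least 14.7-fold lower (4.17% of the list, near the 5.23% of all genes).

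**Figure D3:**
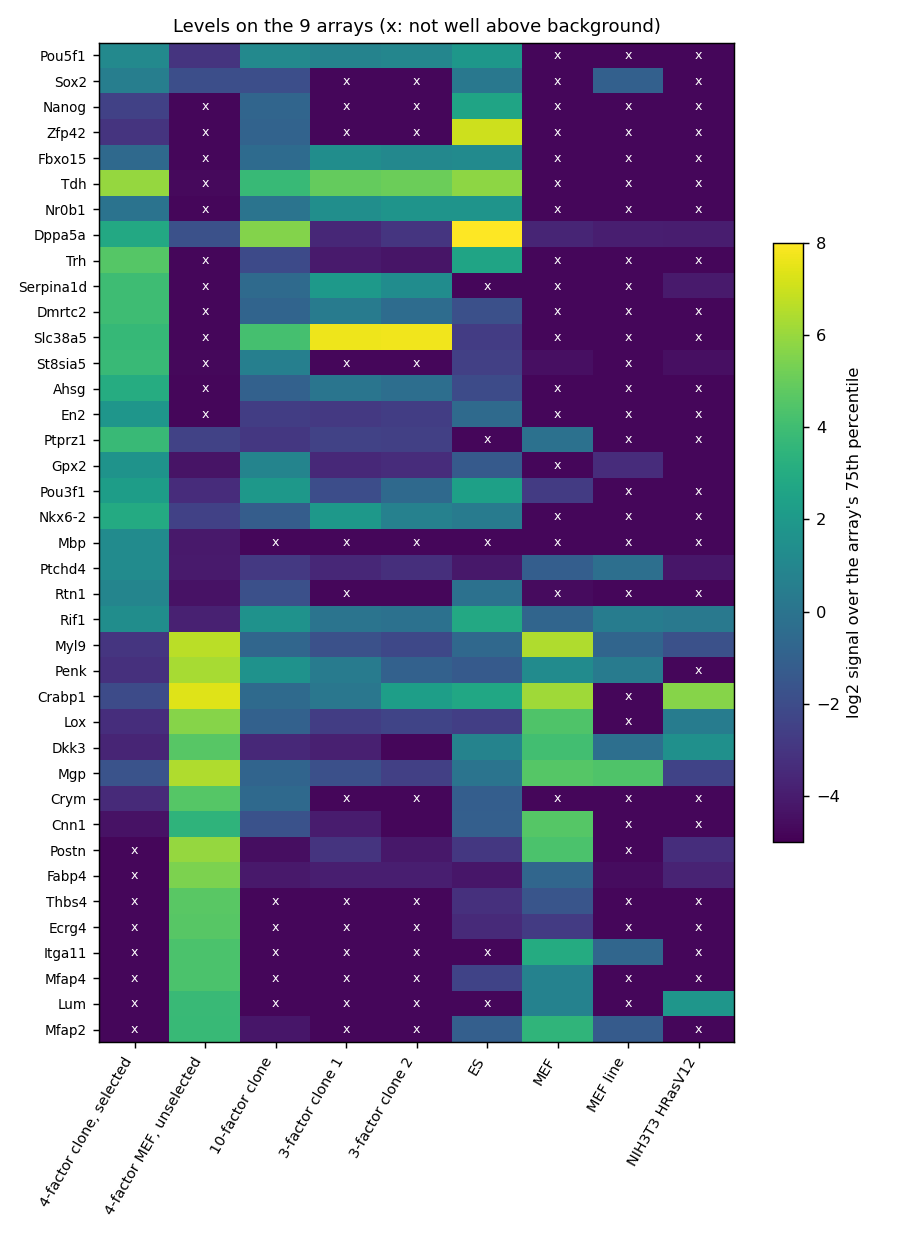
Log2 signal over the array's 75th percentile for 39 genes (rows) on the 9 arrays (columns), the selected clone first and the unselected MEF second, with x where the spot was not well above background. The rows show 8 ES cell genes, 15 leading genes higher in the clone and 16 leading genes lower in the clone; the lower genes share a dark column in the clone and a bright one in the unselected MEF.

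Some of the largest differences were in genes that were faint or absent in ES cells. Ptprz1, a receptor phosphatase of glia and neural progenitors, had 14.2 in the clone and 0.187 in the unselected MEF, 75.9-fold higher (log2 6.25), while ES cells were not above background, the 10-factor and 3-factor clones had 0.134 to 0.187, and MEF had 0.896. Mbp, which encodes myelin basic protein, had 2.43 in the clone and 0.0573 in the unselected MEF, 42.3-fold higher, and was above background on none of the other 7 arrays. Ppp1r14d, an inhibitor of protein phosphatase 1, had 2.38 in the clone, at least 67.6-fold higher, and was not above background on any other array. Dio2, the deiodinase that activates thyroid hormone, had 2.95 in the clone and 0.0797 in the unselected MEF, 37-fold higher, with no more than 0.0909 on any other array. Saa3, an acute-phase serum amyloid, had 15.4 in the clone and 0.456 in the unselected MEF, 33.7-fold higher, with 0.0768 in ES cells and 2.42 in the 10-factor clone. Serpina1d, an alpha-1-antitrypsin gene, had 15.7 in the clone, at least 447-fold higher, was not above background in ES cells, and was present in the other clones, at 0.697 in the 10-factor clone, 3.95 in 3-factor clone 1 and 2.53 in 3-factor clone 2. All 6 were low or not above background in ES cells. Serpina1d was shared with all the other clones. Saa3 was shared with the 10-factor clone and was not above background in either 3-factor clone.

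Other leading genes were also above background in ES cells and in the other clones, several of them at far lower signals. Trh, the precursor of thyrotropin-releasing hormone, had 24.1 in the clone, at least 685-fold above the unselected MEF, and 6.07 in ES cells, with 0.236 in the 10-factor clone and under 0.06 in both 3-factor clones. Pou3f1 (Oct6), a POU factor of epiblast and glia, had 4.66 in the clone and 0.0974 in the unselected MEF, 47.9-fold higher, and 5.2 in ES cells. Gpx2, a glutathione peroxidase of epithelia, had 3.16 in the clone and 0.0509 in the unselected MEF, 62-fold higher. Nkx6-2, a homeobox gene of the central nervous system, had 7.71 in the clone and 0.181 in the unselected MEF, 42.6-fold higher, and was also present in the 3-factor clones at 3.79 and 1.67. Dmrtc2, a DM-domain gene of the germ line, had 15.6 in the clone, at least 444-fold higher. Slc38a5, an amino acid transporter, had 13.1 in the clone, at least 371-fold higher, with 0.153 in ES cells, 17.7 in the 10-factor clone, 206 in 3-factor clone 1 and 208 in 3-factor clone 2. Apart from Slc38a5, these genes had their highest signal of the 9 arrays in the 4-factor clone or, for Pou3f1, in ES cells.

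The kallikrein genes at least 5-fold higher in the clone differed by nearly the same factor. Tissue kallikreins are secreted serine proteases, encoded in mouse by a dense cluster of recent duplicates, and are best known from the salivary gland and kidney. Of 20 kallikrein genes on the array, 10 were at least 5-fold higher in the clone (50%, beside 2.93% of all genes). This list was chosen with earlier results of these data known, so the share is a description only. None of the 20 was at least 5-fold lower, and 5 were above background on neither array. The median log2 difference of the 20 was 2.40, and the lowest was -0.69. By their brightest probes the 10 had log2 differences between 3.26 and 3.85, although their signals in the clone spanned a 17-fold range, from 0.403 to 6.86. In the unselected MEF they spanned 0.0382 to 0.645. Klk1, the true tissue kallikrein, had 6.86 in the clone and 0.645 in the unselected MEF, 10.6-fold higher (log2 3.41, spot error 0.23). The mean over its 2 probes was lower, at log2 2.70. Its signal was 0.446 in ES cells, 10.4 in the 10-factor clone, 28.2 in 3-factor clone 1 and 10.02 in 3-factor clone 2, and it was not above background in MEF. Klk1b5 had 6.44 in the clone and 0.639 in the unselected MEF, 10.1-fold higher, and Klk1b4 had 0.718 in the clone and 0.0529 in the unselected MEF, 13.6-fold higher. The more distant kallikreins Klk4, Klk6, Klk7, Klk8, Klk10 and Klk11 were not past 5-fold.

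The upstream sequences of these duplicates are shown because the 10 genes past 5-fold differed by nearly the same factor, by their brightest probes. RefSeq promoters (GRCm38.p6) were found for 19 of the 20 genes and for 9 of the 10 that were higher. The 120 bases before the start are printed 5′ to 3′ for 5 of the 9 and for 2 relatives, Klk1b1 and Klk1b16, which were above background on neither array. All lie on the plus strand of chromosome 7, and capitals mark the motif TTTAAA, which reads the same on both strands.
Klk1b3 (chr7:44198071-44198190): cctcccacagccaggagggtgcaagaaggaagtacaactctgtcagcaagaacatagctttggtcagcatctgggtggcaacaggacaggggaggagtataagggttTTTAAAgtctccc
Klk1b4 (chr7:44207313-44207432): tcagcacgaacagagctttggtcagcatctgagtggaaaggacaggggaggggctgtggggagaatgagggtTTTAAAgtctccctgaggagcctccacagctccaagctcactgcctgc
Klk1b5 (chr7:44216354-44216473): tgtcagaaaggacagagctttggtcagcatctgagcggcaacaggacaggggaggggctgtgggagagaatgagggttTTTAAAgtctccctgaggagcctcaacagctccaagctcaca
Klk1b24 (chr7:44188116-44188235): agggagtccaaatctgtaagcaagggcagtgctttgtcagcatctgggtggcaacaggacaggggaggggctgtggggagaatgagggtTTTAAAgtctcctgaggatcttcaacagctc
Klk1b26 (chr7:44012558-44012677): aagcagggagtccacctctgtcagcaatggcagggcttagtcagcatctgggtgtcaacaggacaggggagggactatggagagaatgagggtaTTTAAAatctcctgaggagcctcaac
Klk1b1 (chr7:43966631-43966750): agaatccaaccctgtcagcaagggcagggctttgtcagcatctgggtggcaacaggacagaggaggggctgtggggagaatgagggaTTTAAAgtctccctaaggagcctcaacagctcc
Klk1b16 (chr7:44137170-44137289): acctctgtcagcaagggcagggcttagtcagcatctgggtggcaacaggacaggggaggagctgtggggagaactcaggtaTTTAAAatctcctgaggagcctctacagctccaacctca

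Over the 250 bases upstream, the 36 pairs of the 9 higher genes were 52.3% to 87.7% identical, with a median of 69%. Klk1 itself was 52.3% to 57.8% identical to the others. The 5 higher genes printed were 64.6% to 87.7% identical in pairs, and they were 64.1% to 82.7% identical to Klk1b1 and Klk1b16. The motif TTTAAA was in the 250 bases upstream of 7 of the 9 higher genes (77.8%), of 11 of 19 kallikrein genes (57.9%), and of 13.7% of 27025 genes. The motif was also in the printed windows of the silent Klk1b1 and Klk1b16, which were picked by hand. Whether the motif or the sequence around it has a part in the differences was not tested. Genes this alike may also share array signal: whether 1 transcript lit several of these probes was not tested, because the probe sequences were not used here.

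**Figure D4:**
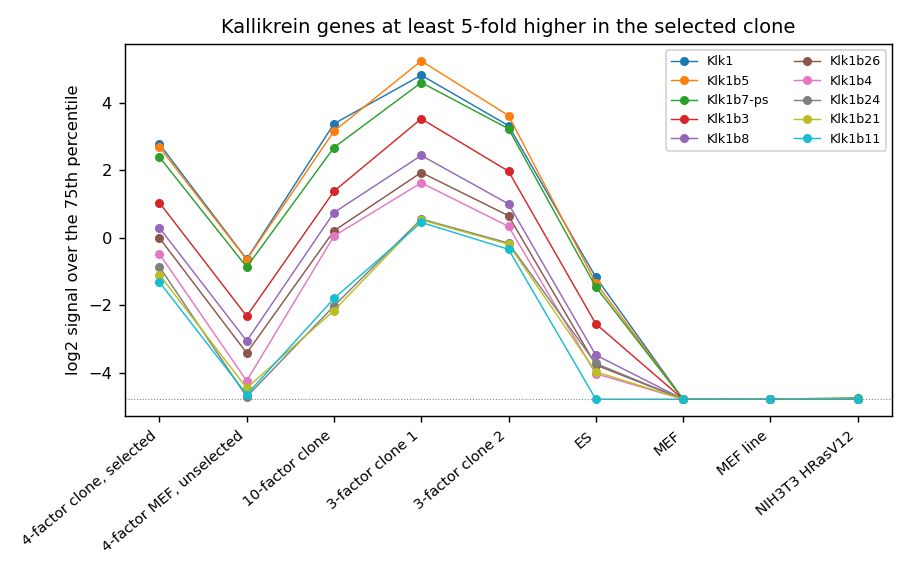
Log2 signal over the array's 75th percentile of the 10 kallikrein genes at least 5-fold higher in the selected clone, on the 9 arrays; lines join the points of 1 gene and the dotted line is the floor. The lines run almost parallel from the selected clone to the unselected MEF, with log2 differences between 3.26 and 3.85, and all 10 genes lie at or just above the floor in MEF and in both fibroblast lines.

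Epithelial genes were divided. Of 38 on the array, 8 were at least 5-fold higher in the clone (21.1%, beside 2.93% of all genes). At least 5-fold lower were 3 (7.89%, beside 5.23%), 11 were above background on neither array, and the median log2 difference was 0. The unselected MEF also differed from MEF: 9 of the 38 were at least 5-fold higher there than in MEF (beside 2.51% of all genes). None was at least 5-fold lower there (beside 0.663%). The genes higher in the clone than in the unselected MEF were adhesion, junction and membrane protease genes. Spint1, an inhibitor of membrane serine proteases, had 1.59 in the clone and 0.078 in the unselected MEF, 20.4-fold higher. Epcam, an epithelial adhesion molecule, had 6.57 in the clone and 0.348 in the unselected MEF, 18.8-fold higher. Its protease partner St14 (matriptase) had 7.6 in the clone and 0.67 in the unselected MEF, 11.3-fold higher. Cdh1, which encodes E-cadherin, had 1.39 in the clone and 0.189 in the unselected MEF, 7.38-fold higher, beside 7.63 in ES cells and 8.34 in the 10-factor clone. The junction scaffold Tjp3 was 9.73-fold higher. Keratins of simple epithelia went the other way or were equal. Krt18 had 0.474 in the clone and 7.16 in the unselected MEF, 15.1-fold lower, Krt19 had 0.712 in the clone and 7.74 in the unselected MEF, 10.9-fold lower, and their partner Krt8 had 7.27 in the clone and 7.3 in the unselected MEF.

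Fibroblast matrix genes were lower in the clone almost throughout. In the clone 37 of 49 were above background, and in the unselected MEF 47 were. Of the 49, 39 were at least 5-fold lower in the clone (background 5.23%), none was at least 5-fold higher, 2 were above background on neither array, and the median log2 difference was -4.25. Postn, which encodes the matrix protein periostin, was not above background in the clone (0.0209) and had 61 in the unselected MEF, at least 2248-fold lower. Lox, the enzyme that crosslinks collagen and elastin, had 0.102 in the clone and 49.6 in the unselected MEF, 485-fold lower (log2 -8.92, spot error 0.45). Mgp, a calcification inhibitor, had 0.311 in the clone and 86.5 in the unselected MEF, 278-fold lower. The fibrillar collagens were also low: Col3a1 had 0.569 in the clone and 110 in the unselected MEF, 194-fold lower, and Col1a1 had 0.363 in the clone and 56.3 in the unselected MEF, 155-fold lower. In ES cells Col3a1 had 0.802 and Col1a1 had 0.376, so the clone's signals were close to those of ES cells for both genes. The ES cells were grown on STO cells, a fibroblast line, whose part in these levels was not tested. The leucine-rich proteoglycans Ogn (166-fold lower) and Dcn (49.2-fold lower) and the bounded Lum (at least 518-fold) and Aspn (at least 363-fold) lay on the same side. Serpinh1, Pcolce, Fbln2, Ccn2 and Efemp2 had the smallest folds of the 39, at 5.4-fold to 7.91-fold lower.

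Contractile genes of myofibroblasts were lower too. Of 17, 10 were at least 5-fold lower in the clone (58.8%, beside 5.23% of all genes). None was at least 5-fold higher, 1 was above background on neither array, and the median log2 difference was -2.43. Myl9, a regulatory myosin light chain, had 0.128 in the clone and 100 in the unselected MEF, 784-fold lower (log2 -9.61, spot error 0.44). Cnn1, which encodes calponin, had 0.048 in the clone and 11.1 in the unselected MEF, 232-fold lower. Tagln, an actin-bundling protein of smooth muscle, had 0.797 in the clone and 174 in the unselected MEF, 218-fold lower. The MEF levels of these 3 genes were 89, 24.1 and 227, close to or above those of the unselected MEF. Cnn2, Cald1, Smtn, Pdlim7, Actn1 and Vcl were 5.05-fold to 18.5-fold lower, and Lmod1 was at least 15.8-fold lower.

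Contractile genes are textbook targets of serum response factor, which binds the CArG box. A CArG box was found, on either strand, in the 250 bases upstream of 3 of the 14 contractile genes with a RefSeq promoter (21.4%), beside 1.62% of 27025 genes. These 3 windows are printed 5′ to 3′ on the plus strand of GRCm38.p6, with the CArG box in capitals, because they hold the only matches in the group.
Myl9 (chr2:156775214-156775463): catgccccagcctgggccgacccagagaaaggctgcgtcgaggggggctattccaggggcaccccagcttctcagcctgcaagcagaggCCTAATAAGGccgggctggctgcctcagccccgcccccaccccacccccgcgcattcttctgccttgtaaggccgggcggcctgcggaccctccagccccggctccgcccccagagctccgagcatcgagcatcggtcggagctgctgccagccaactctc
Cnn2 (chr10:79988350-79988599): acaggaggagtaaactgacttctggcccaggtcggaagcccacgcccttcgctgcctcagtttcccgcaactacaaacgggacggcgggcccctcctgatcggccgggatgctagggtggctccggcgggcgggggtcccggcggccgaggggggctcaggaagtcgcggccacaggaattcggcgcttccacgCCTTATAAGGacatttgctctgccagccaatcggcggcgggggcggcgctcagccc
Vcl (chr14:20929148-20929397): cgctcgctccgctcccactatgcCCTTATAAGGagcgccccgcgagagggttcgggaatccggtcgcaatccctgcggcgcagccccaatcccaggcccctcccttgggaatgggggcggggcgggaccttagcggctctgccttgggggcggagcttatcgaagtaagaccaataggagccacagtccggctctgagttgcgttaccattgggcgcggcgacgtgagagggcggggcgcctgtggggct
The box begins 161 bases before the start of Myl9, 56 before that of Cnn2 and 227 before that of Vcl. Cnn2 had 1.06 in the clone and 19.7 in the unselected MEF, 18.5-fold lower. Vcl, which encodes the adhesion protein vinculin, had 0.0635 in the clone and 0.321 in the unselected MEF, 5.05-fold lower with a spot error of 0.71. The octamer ATTTGCAT, the POU factor motif, was found on either strand upstream of 1 of 20 ES transcription factors (Zfp42, 5%) and 1 of 15 ES marker genes (Spp1, 6.67%), and also of 2 of 32 fibroblast matrix genes (6.25%), beside 1.81% of all genes.

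The regulators of the mesenchymal state were lower in smaller number. Of 36 mesenchymal transcription factors, 13 were at least 5-fold lower in the clone (36.1%, beside 5.23% of all genes). At least 5-fold higher was 1 (2.78%, near the 2.93% of all genes), and 6 were above background on neither array. Prrx2 and Prrx1, homeobox genes of limb and facial mesenchyme, were 34.2-fold and 21.3-fold lower (Prrx1 log2 -4.41, and -2.21 as the mean over its probes). Snai2 (Slug), a repressor of E-cadherin, had 0.325 in the clone and 6.3 in the unselected MEF, 19.4-fold lower, and its relative Snai1 was 7.1-fold lower. Twist1, a basic helix-loop-helix factor of mesenchyme, had 0.109 in the clone and 1.75 in the unselected MEF, 16-fold lower. The member at least 5-fold higher was Foxd1, a forkhead gene of kidney stroma, with 13.2 in the clone and 1.09 in the unselected MEF, 12.1-fold higher, although it was not above background in ES cells. Of 35 HOX genes, which record position along the body, 17 were above background on neither array. Hoxb6 alone was past 5-fold, at 12.5-fold lower (2.86% of the list, beside 5.23% of all genes). At 2-fold, 3 HOX genes were higher and 6 were lower, beside 12.5% and 15% of all genes. Hoxa5 had 1.17 in the clone and 1.11 in the unselected MEF, and Hoxa7 had 7.67 in the clone and 3.86 in the unselected MEF.

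Secreted regulators and surface proteins of fibroblasts were lower with the matrix. Of 17 Wnt and BMP antagonists, 10 were at least 5-fold lower in the clone (58.8%, beside 5.23% of all genes). None was at least 5-fold higher, and the median log2 difference was -3.10. Dkk3, of the Dickkopf family, had 0.0797 in the clone and 24.6 in the unselected MEF, 309-fold lower, and the Wnt-binding Sfrp2 was at least 214-fold lower. Of 29 matrix proteases and inhibitors, 14 were at least 5-fold lower (48.3%) and none was at least 5-fold higher. Among these, Mmp2, which degrades type IV collagen, had 0.984 in the clone and 21.3 in the unselected MEF, 21.7-fold lower. Of 30 mesenchymal surface genes, 11 were at least 5-fold lower (36.7%). The collagen receptor Itga11 was at least 739-fold lower, the PDGF receptor Pdgfrb 31.1-fold and the fibroblast marker Thy1 15.9-fold. Of 32 chemokines and cytokines, 9 were at least 5-fold lower (28.1%), among them Cxcl14 (33.9-fold) and the stem cell attractant Cxcl12 (31.3-fold). Cxcl1, a neutrophil chemokine, was the 1 member at least 5-fold higher (3.1%, near the 2.93% of all genes). Cxcl1 had 2.78 in the clone and 0.226 in the unselected MEF, 12.3-fold higher.

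**Figure D5:**
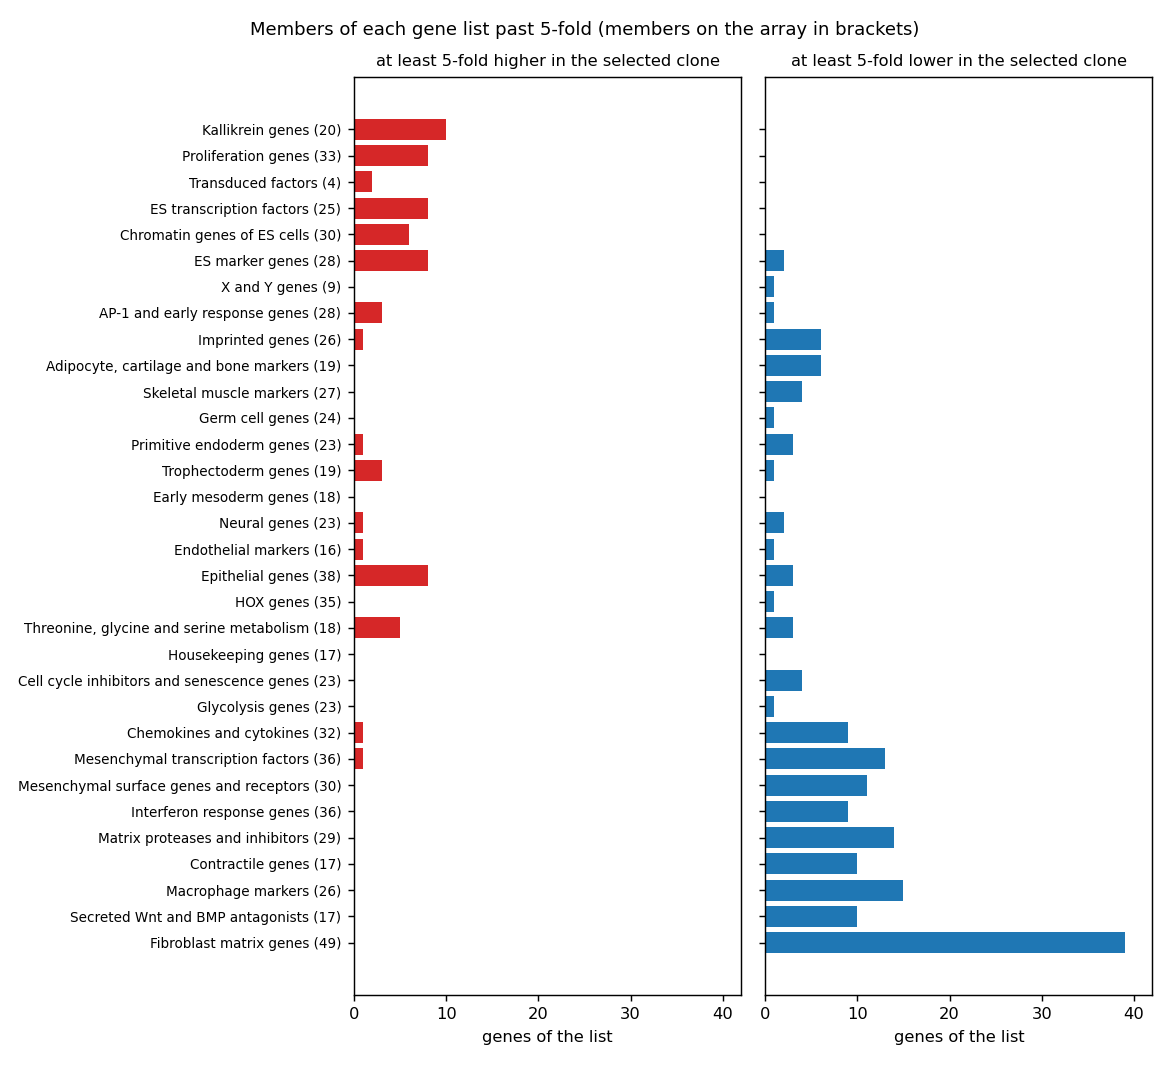
Members of each of the 32 gene lists at least 5-fold higher (left) and at least 5-fold lower (right) in the selected clone, with the number on the array in brackets, sorted by the list's median log2 difference. Kallikrein genes top the left side with 10 of 20 and fibroblast matrix genes the right side with 39 of 49.

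Macrophage markers were high in the unselected culture. Of 26 macrophage markers, 15 were at least 5-fold lower in the clone (57.7%, beside 5.23% of all genes). None was at least 5-fold higher and 3 were above background on neither array (Ptprc, Itgam and Cybb). Their summed signal was 0.943 in the clone and 28.4 in the unselected MEF, with 3.38 in MEF and 2.54 in ES cells. C1qa, a subunit of complement C1q, was not above background in the clone and had 6.41 in the unselected MEF, at least 236-fold lower. Lyz2, the myeloid lysozyme, was at least 151-fold lower, with 4.1 in the unselected MEF. The defining receptors Adgre1 (F4/80) and Csf1r had 1.11 and 0.298 in the unselected MEF and were not above background in the clone. Of the 26 markers, 14 were at least 5-fold higher in the unselected MEF than in MEF, beside 2.51% of all genes. The part of such cells in the other gene groups was not tested.

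Fat, cartilage and muscle genes showed a few large differences. Of 19 markers of fat, cartilage and bone, 6 were at least 5-fold lower in the clone (31.6%, beside 5.23% of all genes). Above background on neither array were 9. Fabp4, the fatty acid carrier of adipocytes and macrophages, was not above background in the clone and had 42.7 in the unselected MEF, at least 1572-fold lower, beside 0.606 in MEF. Its regulator Pparg had 0.0631 in the clone and 0.624 in the unselected MEF, 9.89-fold lower. Col2a1, the cartilage collagen, had 0.0711 in the clone and 7.58 in the unselected MEF, 107-fold lower. Of 27 skeletal muscle markers, 4 were at least 5-fold lower (14.8%), led by the sarcomeric actins Actc1 (50.8-fold) and Acta1 (46.6-fold). The muscle regulators Myod1, Myf5 and Myog were above background on neither array.

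Several leading genes were much brighter in the unselected MEF than in MEF, so the pair differed from the unselected side too. Crym, a thyroid hormone binding protein, had 0.091 in the clone and 24.2 in the unselected MEF, 266-fold lower, and was not above background in MEF. Penk, the enkephalin precursor, had 0.108 in the clone and 78.7 in the unselected MEF, 732-fold lower, and 2.4 in MEF. The matrix glycoprotein Thbs4 was at least 947-fold lower, with 25.7 in the unselected MEF and 0.337 in MEF. The secreted peptide gene Ecrg4 was at least 905-fold lower, with 24.6 in the unselected MEF and 0.151 in MEF. By contrast Crabp1, a retinoic acid binding protein, was high in both fibroblast cultures, with 0.245 in the clone, 167 in the unselected MEF (683-fold lower in the clone) and 71.2 in MEF.

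Proliferation genes were higher in the clone almost throughout, by small folds. All 33 on the array were above background in the clone, and 31 were at least 2-fold higher (background 12.5%). At least 5-fold higher were 8 (24.2%, beside 2.93% of all genes), none was 2-fold lower, and the median log2 difference was 1.96. Mki67, the Ki-67 antigen of cycling cells, had 26.1 in the clone and 3.03 in the unselected MEF, 8.61-fold higher (log2 3.11, spot error 0.21). The kinesin Kif11 was 11.5-fold higher and the replication initiation factor Gins1 9.6-fold higher. Of the Mcm helicase subunits, Mcm5 was 7.46-fold and Mcm7 7.39-fold higher. The G1/S cyclins Ccne1 and Ccne2 were the other 2 of the 33, and Ccne1 had 4.24 in the clone and 4.2 in the unselected MEF. MEF had intermediate signals for the called genes, 12.3 for Mki67 and 10.3 for Mcm7. Of 23 cell cycle inhibitors and senescence genes, 4 were at least 5-fold lower (17.4%, beside 5.23% of all genes) and none was at least 2-fold higher. The 4 were Cdkn1c, Igfbp7, Igfbp4 and Cdkn2b.

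Chromatin genes of ES cells followed the proliferation genes. Of 30, 6 were at least 5-fold higher in the clone (20%, beside 2.93% of all genes). None was at least 5-fold lower, and the median log2 difference was 1.24. Uhrf1, which brings Dnmt1 to newly replicated DNA, had 3.63 in the clone and 0.342 in the unselected MEF, 10.6-fold higher, and the maintenance methyltransferase Dnmt1 itself was 6.03-fold higher. The polycomb genes Ezh2, Phc1, Mtf2 and Jarid2 were 5.71-fold, 6.42-fold, 5.5-fold and at least 11-fold higher. Dnmt3l, a cofactor of de novo methylation, was equal, with 0.117 in the clone and 0.114 in the unselected MEF, beside 4.63 in ES cells.

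Metabolic genes did not share a direction. Of 18 genes of threonine, glycine and serine metabolism, 5 were at least 5-fold higher in the clone (27.8%, beside 2.93% of all genes). At least 5-fold lower were 3 (16.7%, beside 5.23%). With Tdh and Slc38a5, described above, the higher ones were Gcat, which takes the product of Tdh to glycine, with 6.92 in the clone and 1.22 in the unselected MEF (5.65-fold), Pipox (7.67-fold) and the folate enzyme Mthfd1 (5.46-fold). Of 23 glycolysis genes none was at least 5-fold higher and 1 was at least 5-fold lower (4.35%, near the 5.23% of all genes). That gene, the lactate exporter Slc16a3, had 4.57 in the clone and 45.1 in the unselected MEF, 9.87-fold lower. The glycolysis median was -0.87, and -0.31 under quantile normalization. The 17 housekeeping genes had a median of -0.51, which became 0.06 under quantile normalization, and none was past 5-fold.

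Few immediate early genes were past 5-fold. Fos and Fosb, subunits of AP-1, were 6.98-fold and 7.48-fold higher in the clone and were not above background in ES cells, and Etv1, an ETS factor, was 10.8-fold higher. These were 3 of 28 early response genes (10.7%, beside 2.93% of all genes). Hbegf, a ligand of the EGF receptor, was 5.66-fold lower, and it alone was past 5-fold on that side (3.57%, beside 5.23%). Of 36 interferon response genes, 9 were at least 5-fold lower (25%, beside 5.23% of all genes) and none was at least 2-fold higher, led by the immunoproteasome subunit Psmb8 (37-fold). At 2-fold, 23 of the 36 were lower, beside 15% of all genes, and the median log2 difference was -1.67. In the unselected MEF 12 of the 36 were at least 5-fold below MEF, beside 0.663% of all genes.

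Imprinted genes active in fibroblasts were low in the clone. Of 26, 6 were at least 5-fold lower (23.1%, beside 5.23% of all genes). At least 5-fold higher was 1 (3.85%, near the 2.93% of all genes), and 8 were above background on neither array. Igf2, the growth factor, had 0.711 in the clone and 60.9 in the unselected MEF, 85.6-fold lower, and the noncoding H19 beside it had 0.74 in the clone and 37.1 in the unselected MEF, 50.1-fold lower. Mest, Sgce, Cdkn1c and Dlk1 were 65-fold, 31.4-fold, 24.1-fold and 15.4-fold lower. Mest differed from ES cells as well, with 0.125 in the clone and 7.96 in ES cells. Peg3, a zinc-finger gene, was at least 7.31-fold higher. Xist, a noncoding RNA needed for X inactivation in female cells, was not above background in the clone and had 0.786 in the unselected MEF, at least 28.9-fold lower. The Y-linked Ddx3y and Eif2s3y were above background in both, with 1.19 and 2.43 in the clone and 0.933 and 1.9 in the unselected MEF.

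Lists of other early lineages had small counts past 5-fold. Of all genes 2.93% were higher and 5.23% lower. Above background on neither array were 8 of 19 trophectoderm, 11 of 23 primitive endoderm, 11 of 23 neural and 8 of 16 endothelial genes. Of 18 early mesoderm genes 13 were above background on neither array and none was past 5-fold. Of 19 trophectoderm genes 3 were at least 5-fold higher in the clone, led by the AP-2 factor Tfap2c, with 1.13 in the clone and at least 32.2-fold higher, and the keratin Krt7 was at least 169-fold lower. Of 23 primitive endoderm genes, Lama1, a basement membrane laminin chain, was at least 12.4-fold higher and 3 were at least 5-fold lower, Gata6 among them at least 11.5-fold. Of 23 neural genes, Sox11, a factor of immature neurons, had 2.8 in the clone and 0.214 in the unselected MEF, 13.1-fold higher, and 2 were at least 5-fold lower, Gap43 and Fabp7. These are 4.35% and 8.7% of the list, near the shares of all genes. Of 16 endothelial markers, the receptor Tek was at least 17.7-fold higher and Flt1 at least 20.7-fold lower, each 6.25% of the list.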

How the data were processed

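RNA of 9 samples was hybridised once each. Per the file headers, the authors ran Agilent Feature Extraction 8.5.1.1, and the deposited values are an intensity per spot. Its processed signal, background-subtracted and linear, was used. Control spots (736) and outlier spots (9 in the clone, 2 in the unselected MEF) were left out, and repeated spots were averaged. The median SD of the 50 probes spotted 10 times was 0.116 (log2) in the clone and 0.145 in the unselected MEF. Signals were divided by the 75th percentile of their array, raised to a floor at 3.63% of it and put on the log2 scale. Genes at the floor on both arrays have a difference of 0 and enter list medians. The background call used a multiple of 2.6, per the file headers. A bound is the bright signal over the higher of the dim array's lowest signal well above background and the dim spot's own.

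Probes were named through RefSeq accessions (14224), other accessions (64), RIKEN clones (1681) or descriptions (446), and 21 from words in the description after the files were seen. This named 16436 probes of 15678 genes, each given by its brightest probe. A gene counts as 5-fold apart if its brighter spot is above background. Genes named are the 15 with the largest difference or bound in each direction, and members of the 32 lists. The members and lists were chosen with earlier results of these data known. The 5-fold call rule was tested on simulated data, with changes placed in bright probes only. Naming, bounds and list counts were not tested in that way. R 4.3.3 and limma 3.58.1 gave the normexp alternative, and Python 3.11.15 the rest, quantile normalization included. Values of some list members are not reported here.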

Additional observations from a re-analysis of the deposited data

How the results depend on the processing

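No paired analysis was possible because each side is 1 array. Leaving out a replicate was impossible for the same reason. The depth of an array is its signal over background, and faint spots limit folds to bounds. No gene or list median at least 2-fold apart changed sign under any of the settings given here. The probe counts, 615 higher and 898 lower, became 120 and 309 with normexp and offset 50, 388 and 567 where both arrays had to be above background, 2627 and 2669 at 2-fold, and 207 and 440 at 10-fold. Scaling to the median, quantile normalization, the series' value table and a floor 2 times lower kept both counts within 1.5 times. Of 817 genes compared, normexp moved 440 by more than the 0.25 (log2) between the 3-factor clones, the lower floor 195, quantile normalization 131 and the mean over probes 12. Median scaling and the deposited values moved none.

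List medians moved as follows; the cause was not tested, except that normexp compresses low signals by its offset and the filter leaves fewer genes. With normexp they were 0.30 for ES transcription factors, 1.03 for the transduced factors, 0.01 for ES markers, -3.23 for matrix, -1.73 for contractile genes, -0.38 for mesenchymal transcription factors, -0.74 for mesenchymal surface genes, -1.02 for proteases, -1.26 for Wnt and BMP antagonists, -0.21 for chemokines, -0.57 for interferon genes, 1.57 for proliferation, 0.83 for chromatin, 0.61 for kallikreins and -1.04 for macrophage markers. With the lower floor they were 1.90 for ES transcription factors, 1.06 for ES markers, 0.74 for epithelial genes, -4.54 for matrix, 2.90 for kallikreins and -3.43 for macrophage markers. With both arrays above background they were 2.16 for ES transcription factors, 0.05 for ES markers, 1.36 for epithelial genes, -1.55 for mesenchymal transcription factors, -1.31 for chemokines, 3.35 for kallikreins, -0.85 for threonine, glycine and serine metabolism, -1.23 for imprinted genes, -2.23 for macrophage markers, -0.69 for endothelial markers, -0.78 for muscle, -3.12 for fat, cartilage and bone, -1.26 for primitive endoderm, 0.41 for trophectoderm, -0.95 for mesoderm and 0.88 for germ cells. Quantile normalization gave -1.66 for proteases, -2.82 for antagonists, -0.31 for glycolysis and 0.06 for housekeeping genes, and the mean over probes 2.12 for kallikreins.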
